A study of Mus musculus with 14 samples.

Results

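The T cell receptor (TCR) signalling genes examined here were 41 genes that were chosen by name for their part in the pathway and are described by role. The choice was made with earlier results of these data known. A member was read from the row that carries its name or, where a sample had none, from the unnamed locus that shared at least 0.8 of the joint span with the annotated gene or with a transcript of it. All 41 had a value in the HDAC1cKO-HDAC2HET experiment, among 15133 genes tested, and 40 could be tested in the HDAC1cKO experiment, among 14025. RNA-Seq was done on 14 samples of activated CD4+ T cells from C57BL/6 mice. The labels give the tissue as spleen, while the study's methods describe naive CD4+ T cells purified from spleen and lymph nodes together. In the first experiment, 4 WT samples were compared with 4 HDAC1cKO-HDAC2HET samples, whose genotype is HDAC1f/f HDAC2f/+ with CD4-cre. In T cells of these mice *Hdac1* is deleted on both alleles, and *Hdac2* on only 1 of its alleles. Naive cells were sorted, cultured with rhIL-2 and antibodies to CD3 and CD28 over 3 days, and sorted once more for viability. In the second, 3 WT samples were compared with 3 HDAC1cKO samples (HDAC1f/f with CD4-cre), which lack *Hdac1* and keep both *Hdac2* alleles. Their culture of 3 days with antibodies to CD3 and CD28 was followed by 12 hours on anti-CD3, and whether it held IL-2 is not given in the sources used here. *Cd4*-Cre is active from the thymus on, in CD4+ and CD8+ T cells alike, so the alleles were deleted before the cells were cultured. The study used littermate controls and mice of both sexes between 6 and 12 weeks of age, and it prepared the 4 cell batches per genotype of the first experiment within a single day. For the second, no source used here says whether the samples came from separate mice, and its p-values may measure technical spread. Genotype, culture and the number of named rows in the deposited files all differ between the experiments. Their parts in a difference between the experiments cannot be told apart.

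The TCR has no enzymatic activity of its own and signals through the CD3 chains, whose cytoplasmic motifs are phosphorylated by LCK and FYN and then bound by ZAP-70. ZAP-70 phosphorylates the adaptors LAT and SLP-76, which assemble a complex that activates calcium, Ras and protein kinase C signalling, and the last of these reaches NF-kB through BCL10 and MALT1. Phosphatases, ubiquitin ligases and diacylglycerol kinases limit each of these steps, and a naive T cell that meets antigen adjusts the levels of many of them.

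The deleted genes were low where the labels place the deletion. Levels are given as FPKM, read fragments scaled to transcript length and library size. *Hdac1* lay between 76.3 and 79.6 FPKM in WT and between 6.65 and 10.7 FPKM in HDAC1cKO-HDAC2HET samples, and between 72.3 and 81.1 FPKM in WT and between 8.52 and 12.1 FPKM in HDAC1cKO samples. *Hdac2* lay between 58.2 and 60.3 FPKM in WT and between 34.0 and 37.0 FPKM in HDAC1cKO-HDAC2HET samples, whereas it was at 62.4 to 78.2 FPKM in WT and 74.8 to 88.1 FPKM in HDAC1cKO samples. Estimated depth ran from 24900000 to 59200000 fragments per sample. *Cd4* was at 160 to 242 FPKM in all 14 samples and *Cd8a* at no more than 0.574 FPKM. The myeloid markers summed to no more than 0.584 FPKM and the erythroid markers to no more than 0.506 FPKM in any sample. Of the 7 CD4 T cell markers tested, 1 rose and 4 fell in HDAC1cKO-HDAC2HET cells at a limma adjusted p of at most 0.05. Over all genes tested, 24.2% rose and 27.6% fell by the same rule. The CD4 T cell markers summed to 1500 to 1660 FPKM in WT and 1420 to 1570 FPKM in the mutant. Both CD8 genes rose, from a sum of 3.28 to 5.96 FPKM to one of 11.7 to 15.2 FPKM, nearly all of it *Cd8b1*. The NK markers, mostly *Klrk1*, summed to 0.426 to 1.13 FPKM in WT and 22.4 to 29.4 FPKM in HDAC1cKO-HDAC2HET samples, and the B cell markers to 5.83 to 7.68 and 3.88 to 5.50 FPKM. In HDAC1cKO cells the CD8 genes summed to 6.52 to 7.30 FPKM against 3.80 to 4.86 FPKM in WT, and the NK markers to 4.78 to 5.49 FPKM against 0.553 to 1.47 FPKM. The part of these markers in the changes below was not tested. In bulk RNA, fewer cells of a type and less RNA per cell cannot be told apart.

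To show the sequence in front of the members that moved most, the 250 bases upstream of the RefSeq start site (build GRCm38.p6) are given for *Lcp2* and *Themis*, among the largest falls, *Cblb* and *Cd247*, the largest rises, and *Nfkbia*, a target of NF-kB. RefSeq promoters matched 34 of the 41 members, and *Sla* was not among them. Capitals mark matches, on either strand, to AGGAAG (core of ETS factor sites), TGTGGT (core of RUNX sites) or the kappaB motif of 3 G, 2 free bases, 3 T and 2 C. No window holds more than 1 match, so no printed matches overlap.
The windows are chr11:34046678-34046927 on the plus strand, chr10:28668110-28668359 on the plus strand, chr16:52031299-52031548 on the plus strand, chr1:165788431-165788680 on the plus strand and chr12:55492648-55492897 on the minus strand.
Lcp2: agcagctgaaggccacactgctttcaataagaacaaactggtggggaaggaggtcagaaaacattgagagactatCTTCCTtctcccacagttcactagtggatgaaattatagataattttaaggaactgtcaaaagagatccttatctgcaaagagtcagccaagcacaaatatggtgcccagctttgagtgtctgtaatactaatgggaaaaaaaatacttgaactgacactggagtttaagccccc
Themis: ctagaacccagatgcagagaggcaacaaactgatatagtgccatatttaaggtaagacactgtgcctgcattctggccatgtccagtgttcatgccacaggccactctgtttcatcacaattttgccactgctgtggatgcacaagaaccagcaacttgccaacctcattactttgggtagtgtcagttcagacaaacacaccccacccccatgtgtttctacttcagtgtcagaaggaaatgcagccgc
Cblb: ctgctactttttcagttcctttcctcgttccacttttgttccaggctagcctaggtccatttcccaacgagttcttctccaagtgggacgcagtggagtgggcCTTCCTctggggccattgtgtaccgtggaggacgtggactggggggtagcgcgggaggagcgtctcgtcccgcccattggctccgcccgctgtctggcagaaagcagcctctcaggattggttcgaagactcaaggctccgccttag
Cd247: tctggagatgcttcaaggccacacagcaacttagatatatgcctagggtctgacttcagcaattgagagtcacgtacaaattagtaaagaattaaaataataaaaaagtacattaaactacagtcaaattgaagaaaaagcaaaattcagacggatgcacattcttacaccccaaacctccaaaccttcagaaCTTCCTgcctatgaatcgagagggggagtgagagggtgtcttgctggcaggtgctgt
Nfkbia: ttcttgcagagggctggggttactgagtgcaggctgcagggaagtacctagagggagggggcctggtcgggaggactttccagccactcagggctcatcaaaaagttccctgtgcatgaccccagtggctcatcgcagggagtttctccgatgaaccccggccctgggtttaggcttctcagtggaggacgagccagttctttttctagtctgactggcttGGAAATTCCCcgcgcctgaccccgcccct
The ETS match lies 175 bases before the start site in *Lcp2*, 147 before it in *Cblb* and 57 before it in *Cd247*. The *Themis* window holds none of the 3 motifs, and the *Nfkbia* window holds a kappaB match that begins 29 bases before the start site. AGGAAG was found in 20 of the 34 member windows (58.8%) and in 29.5% of all 32851 RefSeq windows of the same length. TGTGGT was found in 5 member windows (14.7%) and in 4614 of the 32851. The kappaB letters were found in 2 member windows, those of *Rel* and *Nfkbia*, and in 1.41% of all windows. A match is a description of the letters, not of binding.

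Most members differed between HDAC1cKO-HDAC2HET and WT CD4+ T cells, and mostly downward. Of the 41 members, 23 fell and 7 rose at a limma adjusted p of at most 0.05, and 11 did not pass. Over all genes tested, 51.8% passed, 27.6% lower and 24.2% higher, so the members' 73.2% stood beside a high background. The members were chosen with earlier results of these data known, so their share is not independent of those results. In WT the median level of the members was 75.4 FPKM, against 6.54 FPKM over all genes tested. The part of this level in the share that passed was not tested. The median log2 change of the members was -0.34, against -0.05 over all genes tested. Changes were small as a rule, and only *Lcp2*, *Themis* and *Sla* fell and *Cblb* rose by 2-fold or more with an adjusted p of at most 0.05, as did 5.57% of all genes downward, 5.59% upward and 11.2% in either direction. The sum of *Sla* and a gene that overlaps it did not fall by 2-fold, as described with *Sla* below. Every HDAC1cKO-HDAC2HET sample lay below every WT sample for 22 members and above every WT sample for 7. Such separation was seen for 50.3% of all genes tested, 26.9% lower and 23.4% higher. Where the groups of 4 did not overlap, the 2-sided exact permutation test gave p = 0.0286, the smallest it allows.

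**Figure D1:**
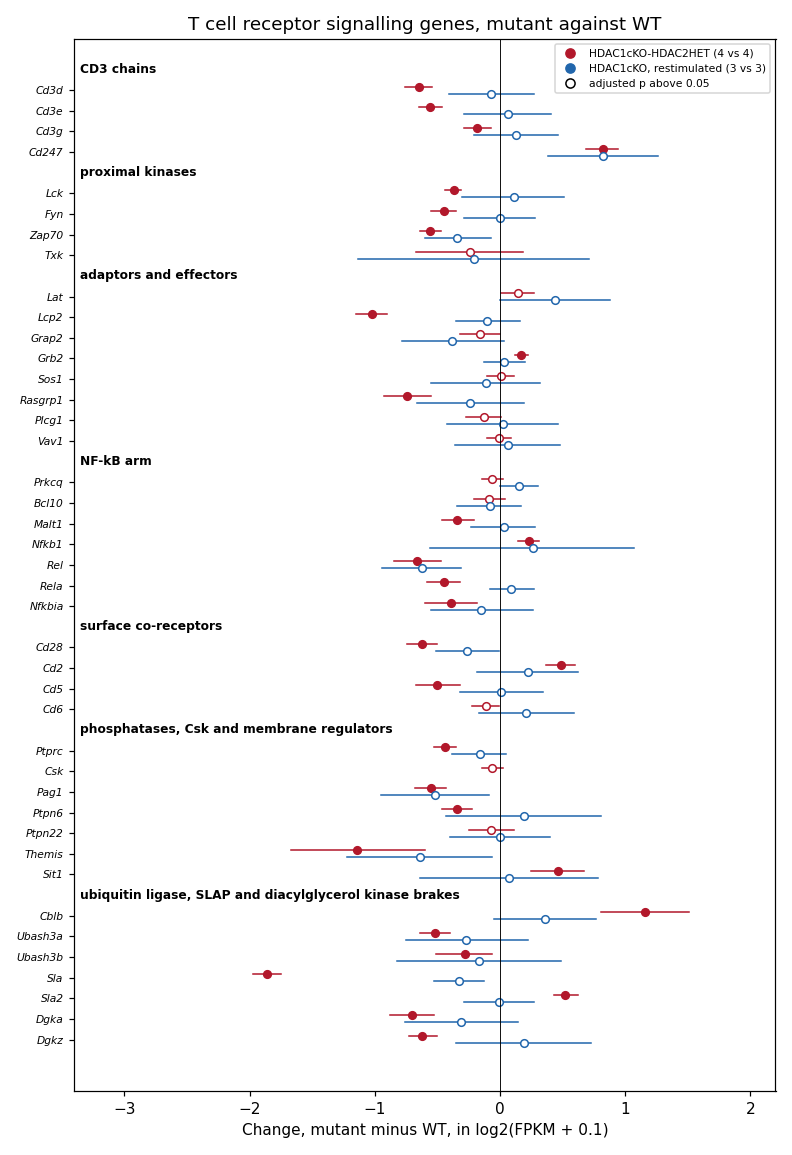
Change of each of the 41 members, mutant minus WT, on the log2(FPKM + 0.1) scale, by role. Points are estimates from limma with 95% intervals, red for HDAC1cKO-HDAC2HET (4 against 4 samples) and blue for HDAC1cKO after restimulation (3 against 3), and open points did not pass an adjusted p of 0.05. *Sla* lies farthest to the left at -1.86 and *Cblb* farthest to the right at 1.16, and all blue points are open.

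In WT CD4+ T cells after 3 days, most members were expressed at high levels. Their median level was 75.4 FPKM, against 6.54 FPKM over all genes tested, and 19 of them were above 100 FPKM. The highest was *Ptprc*, encoding CD45, at 361 ± 17.8 FPKM (SD, n = 4), followed by *Lat* at 348 ± 20.2, *Cd5* at 341 ± 22.1 and *Cd2* at 296 ± 19.0 FPKM. The lowest were *Pag1* at 6.10 ± 0.172, *Sit1* at 5.64 ± 0.567, *Sos1* at 4.20 ± 0.143 and the TEC kinase *Txk* at 3.92 ± 0.376 FPKM. Of the 40 pairs of neighbours in this order, 28 overlapped over their WT samples, among them *Pag1* and *Sit1*, and *Sos1* and *Txk*, whereas each neighbour from *Fyn* at 127 FPKM down to *Prkcq* at 47.9 FPKM was separate from the next.

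The CD3 chains moved in opposite directions. CD3-delta, CD3-epsilon and CD3-gamma (*Cd3d*, *Cd3e*, *Cd3g*) lie together on chromosome 9, where they span 40056 bases, and all 3 fell, *Cd3g* by a small amount. CD3-zeta (*Cd247*), on chromosome 1, carries most of the signalling motifs of the complex, and it rose. *Cd3d* was at 151, 175, 166 and 170 FPKM in WT and 102, 108, 104 and 106 FPKM in HDAC1cKO-HDAC2HET samples. *Cd3e* was at 187, 212, 202 and 196 FPKM in WT and 133, 133, 137 and 139 FPKM in HDAC1cKO-HDAC2HET samples. For both genes the groups were far apart relative to their spread. *Cd3g* was at 226, 263, 250 and 245 FPKM in WT and 212, 217, 221 and 219 FPKM in HDAC1cKO-HDAC2HET samples, groups that were close but did not overlap. *Cd247* was at 77.1, 82.3, 71.5 and 70.5 FPKM in WT and 135, 132, 127 and 136 FPKM in HDAC1cKO-HDAC2HET samples, with every mutant sample above every WT sample.

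The log2 change was -0.65 (SE 0.05, limma adjusted p = 2.08e-05) for *Cd3d* and -0.56 (SE 0.04, limma adjusted p = 2.21e-05) for *Cd3e*. That of *Cd3g* was smaller, at -0.18 (SE 0.05, limma adjusted p = 0.0136, or 0.117 with all 14 samples in 1 fit), and *Cd247* rose by 0.82 (SE 0.05, limma adjusted p = 1.33e-05). Within a sample, the ratio of *Cd247* to *Cd3e* in FPKM was therefore 0.354 to 0.412 in WT and 0.928 to 1.02 in HDAC1cKO-HDAC2HET samples. The ratio of *Cd3d* to its neighbour *Cd3g* was 0.661 to 0.694 in WT and 0.473 to 0.495 in HDAC1cKO-HDAC2HET samples. The assembled *Cd247* locus began upstream of the annotated gene, at 165781075 rather than 165788681, and covers *Gm16565*. It also meets *Pou2f1* on the other strand, a gene at no more than 4.64 FPKM. *Trac*, the constant segment of the TCR alpha chain, was at 903 to 1040 FPKM in WT and 763 to 904 FPKM in HDAC1cKO-HDAC2HET samples (log2 change -0.22, limma adjusted p = 0.0287), with the highest mutant sample level with the lowest WT sample.

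**Figure D2:**
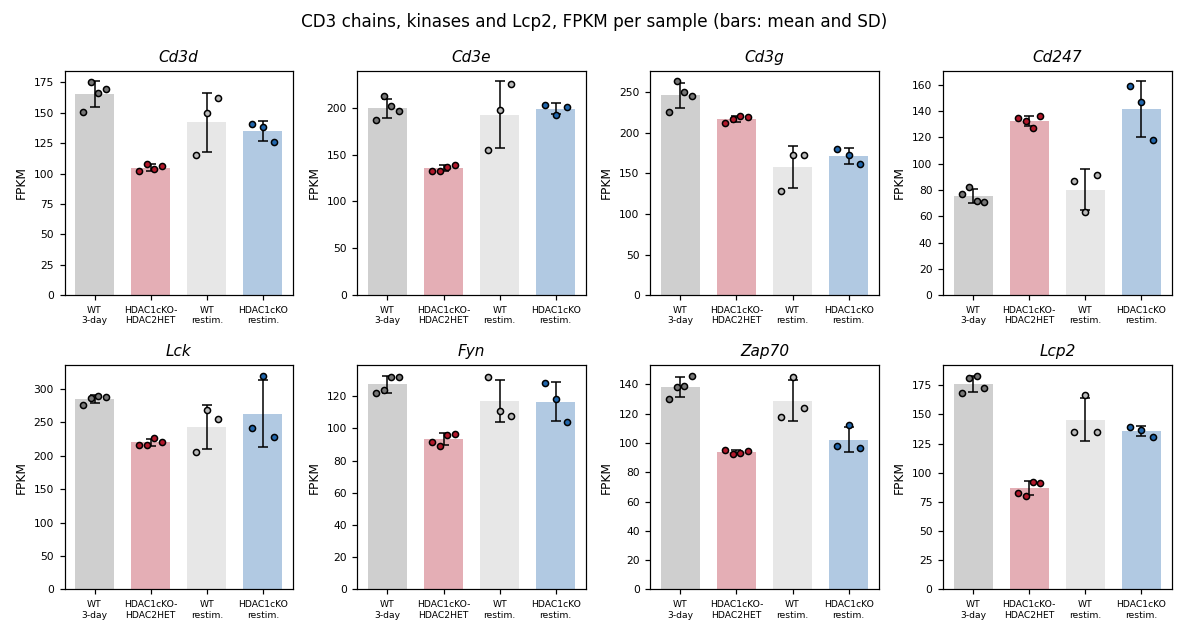
FPKM of the CD3 chains, the kinases *Lck*, *Fyn* and *Zap70*, and *Lcp2* in each of the 14 samples (points), with group means and SD (bars), n = 4, 4, 3 and 3. In the 3-day culture, *Cd247* is higher in all 4 HDAC1cKO-HDAC2HET samples and the other 7 genes are lower in all 4.

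The kinases that act first at the receptor also fell. *Lck*, the kinase bound to CD4, was at 276, 287, 289 and 288 FPKM in WT and 216, 217, 227 and 221 FPKM in HDAC1cKO-HDAC2HET samples. *Fyn*, a Src kinase with overlapping function, was at 122, 124, 132 and 132 FPKM in WT and 91.8, 88.8, 95.8 and 96.7 FPKM in HDAC1cKO-HDAC2HET samples. *Zap70* was at 130, 138, 139 and 146 FPKM in WT and 95.0, 92.4, 93.5 and 94.4 FPKM in HDAC1cKO-HDAC2HET samples. None of these groups overlapped. The log2 changes were -0.37 (SE 0.03, limma adjusted p = 2.58e-05) for *Lck*, -0.45 (SE 0.04, limma adjusted p = 6.53e-05) for *Fyn* and -0.56 (SE 0.04, limma adjusted p = 1.27e-05) for *Zap70*. *Txk* did not pass (log2 change -0.24, limma adjusted p = 0.303). *Lck* lies 5630 bases from the deleted *Hdac1* on chromosome 4, and any part of the targeted allele in its value was not tested.

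Of the adaptors and effectors 3 of 8 passed (37.5%), a smaller share than in any other role and below the 51.8% of all genes. *Lcp2* encodes SLP-76, the adaptor that binds the LAT complex to VAV1 and the TEC kinases. It was at 167.8, 180.6, 182.7 and 173.1 FPKM in WT and 83.0, 80.1, 92.0 and 91.5 FPKM in HDAC1cKO-HDAC2HET samples, a separation of 2.03-fold by the means. *Rasgrp1*, the diacylglycerol-dependent activator of Ras, was at 40.7, 44.9, 39.6 and 41 FPKM in WT and 29.0, 24.9, 22.5 and 23.4 FPKM in HDAC1cKO-HDAC2HET samples. Both fell in every mutant sample, by 1.02 (SE 0.05, limma adjusted p = 5.45e-06) for *Lcp2* and by 0.74 (SE 0.08, limma adjusted p = 1.68e-04) for *Rasgrp1* on the log2 scale. *Grb2*, which links receptors to the Ras exchange factor SOS1, was at 41.5, 42.2, 42.6 and 41.8 FPKM in WT and 46.9, 46.6, 47.7 and 48.1 FPKM in HDAC1cKO-HDAC2HET samples, a log2 change of 0.17 (SE 0.02, limma adjusted p = 3.96e-04). The other adaptors and effectors, *Lat*, *Grap2*, *Sos1*, *Plcg1* and *Vav1*, had log2 changes between -0.16 and 0.14, and their groups overlapped. *Lat*, the scaffold that SLP-76 joins, was at 328 to 376 FPKM in WT and 359 to 403 FPKM in HDAC1cKO-HDAC2HET samples (limma adjusted p = 0.0786).

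In the NF-kB arm the subunits did not move together. *Nfkb1* encodes p105, the precursor of p50, and rose, while *Rel* (c-Rel), *Rela* (p65), *Nfkbia* (the inhibitor IkB-alpha) and *Malt1* (the paracaspase) fell. *Nfkb1* was at 210, 200, 204 and 219 FPKM in WT and 246, 235, 248 and 248 FPKM in HDAC1cKO-HDAC2HET samples. *Rel* was at 40.8, 33.2, 36.0 and 34.8 FPKM in WT and 25.3, 21.5, 23.7 and 21.0 FPKM in HDAC1cKO-HDAC2HET samples. *Rela* was at 49.9, 50.6, 55.3 and 55.5 FPKM in WT and 37.9, 35.6, 39.8 and 41.2 FPKM in HDAC1cKO-HDAC2HET samples. All 3 groups were separate, with *Nfkb1* above and *Rel* and *Rela* below WT in every mutant sample.

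The log2 change was 0.23 (SE 0.04, limma adjusted p = 0.00117, or 0.39 with all 14 samples in 1 fit) for *Nfkb1*, -0.66 (SE 0.08, limma adjusted p = 3.03e-04) for *Rel* and -0.45 (SE 0.06, limma adjusted p = 3.54e-04) for *Rela*. The ratio of *Rel* to *Nfkb1* within a sample was 0.158 to 0.194 in WT and 0.0846 to 0.103 in HDAC1cKO-HDAC2HET samples, and that of *Rela* to *Nfkb1* was 0.237 to 0.272 and 0.152 to 0.166. *Nfkbia*, whose transcription NF-kB itself drives, was at 161, 120, 135 and 124 FPKM in WT and 107, 102, 103 and 98.4 FPKM in HDAC1cKO-HDAC2HET samples, a log2 change of -0.39 (SE 0.09, limma adjusted p = 0.00773). *Malt1* changed by -0.34 (SE 0.05, limma adjusted p = 0.00114). *Prkcq*, encoding protein kinase C theta, and *Bcl10* had log2 changes of -0.06 and -0.09 and did not pass.

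**Figure D3:**
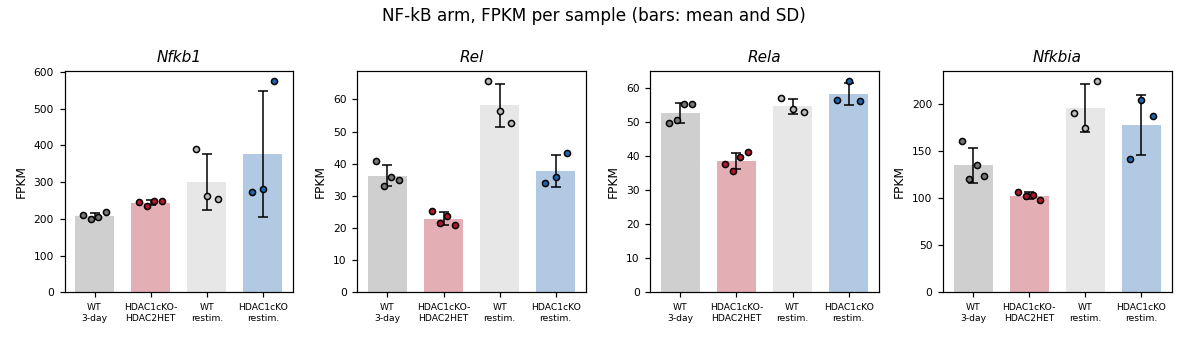
FPKM of *Nfkb1*, *Rel*, *Rela* and *Nfkbia* in each of the 14 samples (points), with group means and SD (bars), n = 4, 4, 3 and 3. In the HDAC1cKO experiment, replicate 3 of HDAC1cKO stands at 574 FPKM of *Nfkb1* against 272 and 282 FPKM in the others.

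Among the surface co-receptors, *Cd28* and *Cd5* fell and *Cd2* rose. *Cd28*, the receptor of the second signal, was at 89.2, 104, 92.1 and 95.9 FPKM in WT and 63.4, 62.9, 60.3 and 61.0 FPKM in HDAC1cKO-HDAC2HET samples (log2 change -0.62, SE 0.05, limma adjusted p = 3.45e-05). *Cd5*, an inhibitory receptor whose level follows TCR signal strength, was at 314, 335, 351 and 365 FPKM in WT and 222, 227, 272 and 249 FPKM in HDAC1cKO-HDAC2HET samples (log2 change -0.50, SE 0.08, limma adjusted p = 8.96e-04). *Cd2*, an adhesion and costimulatory receptor, was at 308, 288, 314 and 272 FPKM in WT and 423, 418, 398 and 416 FPKM in HDAC1cKO-HDAC2HET samples (log2 change 0.49, SE 0.05, limma adjusted p = 1.15e-04). None of these groups overlapped. *Cd28* was read here in all 8 samples from a locus that matches 1 of its transcripts and shares 0.477 of the span of the whole gene, and without it 22 members fell. *Cd6*, related to *Cd5* and its neighbour on chromosome 19, had a log2 change of -0.11 (limma adjusted p = 0.0743).

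The regulators at the membrane were mixed as well. *Themis*, a thymocyte-expressed regulator of the phosphatase SHP-1, was at 14.8, 10.4, 10.8 and 9.13 FPKM in WT and 6.87, 5.91, 3.58 and 4.28 FPKM in HDAC1cKO-HDAC2HET samples. *Pag1*, the transmembrane adaptor that recruits the inhibitory kinase CSK, was at 5.92, 6.31, 6.02 and 6.17 FPKM in WT and 4.49, 3.96, 4.05 and 4.03 FPKM in HDAC1cKO-HDAC2HET samples. *Sit1*, an inhibitory adaptor, was at 5.50, 5.40, 6.47 and 5.20 FPKM in WT and 6.75, 8.19, 8.17 and 8.04 FPKM in HDAC1cKO-HDAC2HET samples. *Themis* and *Pag1* lay lower and *Sit1* higher in every mutant sample. The log2 changes were -1.14 (SE 0.23, limma adjusted p = 0.00392) for *Themis*, -0.55 (SE 0.05, limma adjusted p = 8.25e-05) for *Pag1* and 0.46 (SE 0.09, limma adjusted p = 0.0035, or 0.063 with all 14 samples in 1 fit) for *Sit1*. *Ptprc*, the phosphatase that activates LCK, fell by 0.44 and *Ptpn6*, encoding SHP-1, fell by 0.34 on the log2 scale (limma adjusted p = 7.69e-04 for *Ptpn6*, or 0.0958 with all 14 samples in 1 fit), while *Csk* and *Ptpn22*, which act against LCK together, had log2 changes of -0.06 and -0.07 and did not pass.

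All 7 genes of the group of ubiquitin ligases, SLAP adaptors and diacylglycerol kinases passed, 5 lower and 2 higher, where 51.8% of all genes passed, 27.6% lower and 24.2% higher. *Cblb* encodes CBL-B, a ubiquitin ligase that limits activation without CD28, and was at 42.7, 27.4, 27.9 and 26.9 FPKM in WT and 75.9, 67.5, 64.8 and 67.2 FPKM in HDAC1cKO-HDAC2HET samples. The groups were separate although WT replicate 1 stood above the other WT samples. The log2 change was 1.16 (SE 0.15, limma adjusted p = 3.82e-04). *Dgka*, a kinase that removes diacylglycerol, was at 116, 133, 147 and 133 FPKM in WT and 84.5, 85.5, 77.4 and 76.7 FPKM in HDAC1cKO-HDAC2HET samples (log2 change -0.70, SE 0.07, limma adjusted p = 1.41e-04). Its relative *Dgkz* went the same way, at -0.62 (SE 0.05, limma adjusted p = 2.80e-05). Within a sample, the ratio of *Cblb* to *Dgka* was 0.189 to 0.369 in WT and 0.789 to 0.898 in HDAC1cKO-HDAC2HET samples. *Ubash3a* and *Ubash3b*, encoding the STS proteins that dampen ZAP-70 signalling, fell by 0.52 and 0.28 on the log2 scale (limma adjusted p = 1.08e-04 and 0.042), the latter with groups that overlapped and an adjusted p of 0.222 with all 14 samples in 1 fit.

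*Sla* showed the largest change of any member, although its value shares a locus with another gene. It encodes SLAP, an adaptor that brings CBL to the TCR complex and lowers CD3-zeta levels. It was at 166.0, 183.9, 174.5 and 188.7 FPKM in WT and 51.1, 49.8, 47.5 and 47.2 FPKM in HDAC1cKO-HDAC2HET samples, 3.65-fold apart by the means, with a log2 change of -1.86 (SE 0.05, limma adjusted p = 4.02e-07). *Sla* (chromosome 15, 66780819 to 66831829, minus strand) lies inside *Tg* (66670753 to 66850721, plus strand), the gene of thyroglobulin, a thyroid product. No sample of either experiment listed *Tg* by name, and its values come from unnamed loci that matched the gene or a transcript of it. The spans of those loci are not given here. Read in this way, *Tg* was at 56.6, 34.0, 48.8 and 41.4 FPKM in WT and 145, 143, 116 and 144 FPKM in HDAC1cKO-HDAC2HET samples. It thus moved against *Sla* (log2 change 1.62, SE 0.16, limma adjusted p = 9.18e-05). The libraries were stranded, but the sources used here do not say whether strand was used in the estimation. The 2 values summed to 218 to 230 FPKM in WT and 163 to 196 FPKM in HDAC1cKO-HDAC2HET samples, for a log2 change of -0.27 (limma adjusted p = 0.00655), against -1.86 for *Sla* alone. In HDAC1cKO cells the log2 change of the sum was -0.12 (limma adjusted p = 0.528). This sum was chosen after the values had been seen. It adds 2 values that are each scaled to transcript length, so it is not a corrected value of *Sla*. The part of reads shared between *Sla* and *Tg* in the fall of *Sla* was not tested.

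*Sla2*, the relative of *Sla*, rose. It was at 19.8, 20.1, 19.1 and 19.2 FPKM in WT and 27.0, 29.9, 26.9 and 28.7 FPKM in HDAC1cKO-HDAC2HET samples (log2 change 0.52, SE 0.04, limma adjusted p = 3.30e-05). *Rab5if* overlaps *Sla2* on the other strand and was at 24.4 to 29.7 FPKM in WT and 22.0 to 26.0 FPKM in HDAC1cKO-HDAC2HET samples, which overlapped. Of the 41 members, 6 (*Sla*, *Sla2*, *Cd247*, *Lat*, *Plcg1* and *Ptpn22*) had an overlapping gene above 1 FPKM in some sample of this experiment, and reads shared with such genes could not be told apart here.

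**Figure D4:**
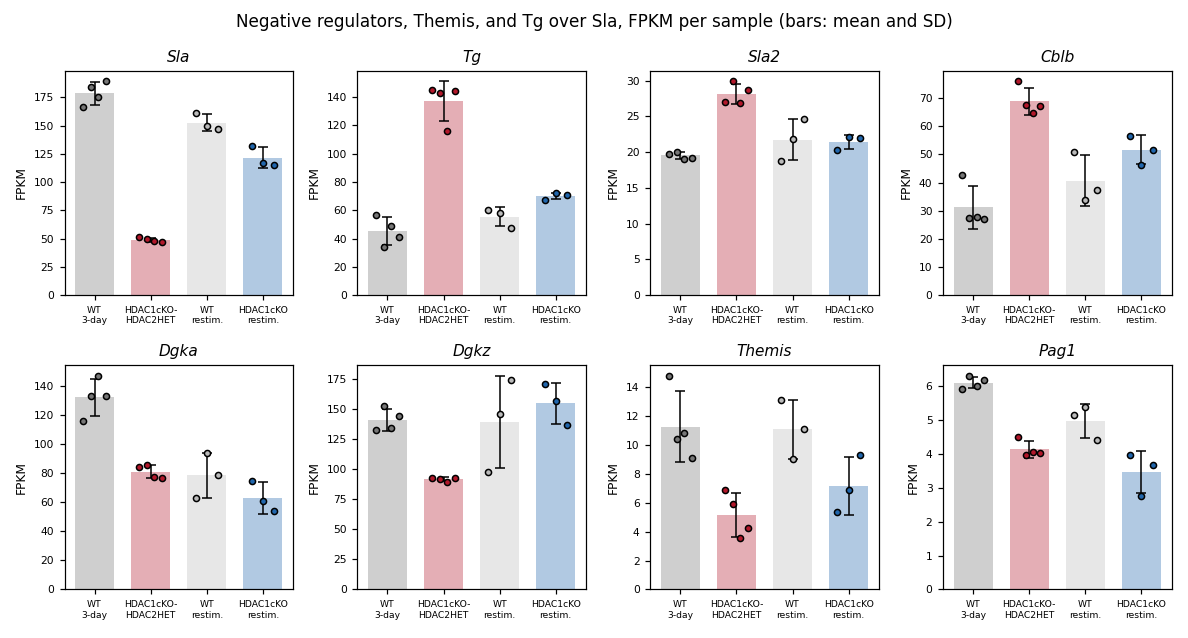
FPKM of *Sla*, *Tg*, *Sla2*, *Cblb*, *Dgka*, *Dgkz*, *Themis* and *Pag1* in each of the 14 samples (points), with group means and SD (bars), n = 4, 4, 3 and 3. *Sla* falls to 47.2 to 51.1 FPKM in HDAC1cKO-HDAC2HET samples while *Tg* stands at 116 to 145 FPKM.

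In HDAC1cKO cells, in which *Hdac2* is intact, no member passed when the experiment was fitted alone. With all 14 samples in 1 fit, 6 passed by limma, *Cd247* (adjusted p = 0.00402) and *Prkcq* (adjusted p = 0.0471) higher and *Rel* (adjusted p = 0.00657), *Sla* (adjusted p = 0.00926), *Zap70* (adjusted p = 0.0178) and *Pag1* (adjusted p = 0.0188) lower. The share of all genes that passed in that fit is not given here, so this count has no background beside it. The values that follow are those of the experiment alone. At an adjusted p of at most 0.05, limma called 0 of 40 members, where it called 0.0927% of all genes, 0.0285% higher and 0.0642% lower. At an unadjusted p of at most 0.05, 8 members passed, as did 14.2% of all genes. Groups of 3 did not overlap for 8 members, 3 higher and 5 lower, against 22.3% of all genes, 9.93% higher and 12.3% lower. The exact permutation test of 3 against 3 samples cannot give a p below 0.1. Of the 40 log2 changes, 19 were above 0 and 21 below.

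The largest rise and the largest falls in HDAC1cKO cells had the sign they had in HDAC1cKO-HDAC2HET cells. *Cd247* was at 86.5, 62.9 and 91.5 FPKM in WT and 159, 147 and 118 FPKM in HDAC1cKO samples, all above WT, with a log2 change of 0.82 (95% interval 0.38 to 1.26, limma adjusted p = 0.189). *Rel* was at 65.6, 56.4 and 52.5 FPKM in WT and 33.9, 35.9 and 43.4 FPKM in HDAC1cKO samples, all below WT, with a log2 change of -0.62 (95% interval -0.94 to -0.31, limma adjusted p = 0.18). *Themis* was at 13.1, 9.04 and 11.1 FPKM in WT and 5.34, 6.90 and 9.33 FPKM in HDAC1cKO samples, which overlapped (log2 change -0.64, limma adjusted p = 0.322). *Pag1* changed by -0.52 on the log2 scale and *Zap70* by -0.34, without overlap of the groups but with limma adjusted p-values of 0.293 and 0.272. *Sla* was at 161, 150 and 147 FPKM in WT and 132, 117 and 115 FPKM in HDAC1cKO samples (log2 change -0.33, limma adjusted p = 0.207), and *Tg* again moved against it, from 47.6 to 60.3 FPKM in WT to 67.5 to 72.2 FPKM in HDAC1cKO samples.

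Other members that fell in HDAC1cKO-HDAC2HET cells stood near WT in HDAC1cKO cells, with wide intervals. *Cd3e* was at 155, 198 and 225 FPKM in WT and 203, 192 and 201 FPKM in HDAC1cKO samples (log2 change 0.06, 95% interval -0.29 to 0.41). *Cd3d* had a log2 change of -0.07 (95% interval -0.41 to 0.27). *Lcp2* was at 135, 167 and 135 FPKM in WT and 139, 137 and 131 FPKM in HDAC1cKO samples (log2 change -0.10, 95% interval -0.35 to 0.16). *Rela* was at 57.3, 53.9 and 53.0 FPKM in WT and 56.6, 62.1 and 56.3 FPKM in HDAC1cKO samples (log2 change 0.09, 95% interval -0.08 to 0.27). In each case the groups overlapped. WT replicate 1 had the lowest value of the 3 WT samples for *Cd3d*, *Cd3e*, *Cd3g*, *Lck* and *Lat*, among others. For other members it had the highest, *Fyn*, *Nfkb1*, *Rel*, *Rela* and *Cd2* among them. *Xist* was at 42.9 and 33.2 FPKM in WT replicates 1 and 3 and at most 0.0435 FPKM in the other 4 samples, so sex was not balanced between the genotypes. The WT samples of this experiment thus did not all come from a single mouse, whereas these values leave that open for the HDAC1cKO samples. In the first experiment *Xist* was at 58.9 to 65.2 FPKM in WT and 26.0 to 33.7 FPKM in HDAC1cKO-HDAC2HET samples. The part of sex in these changes was not tested there, and with sex as a covariate in the second experiment the counts of members called stayed at 0. *Csk* was not tested here because its assembled locus differed in span among the samples, and *Cd28* was read there from a longer locus than in the first experiment, so its changes describe unlike loci.

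The difference between the changes in HDAC1cKO-HDAC2HET and HDAC1cKO cells was tested for 40 members, and 6 passed, 2 higher and 4 lower, or 15.0% against 9.03% of all genes, 4.75% higher and 4.28% lower. At an unadjusted p of at most 0.05, 16 members passed, against 25.5% of all genes. *Sla* differed by -1.53 (SE 0.09, limma adjusted p = 5.66e-05), but the sum of *Sla* and *Tg* differed by -0.15 (limma adjusted p = 0.366), which did not pass. *Lcp2* differed by -0.93 (SE 0.12, limma adjusted p = 0.00217) and *Rela* by -0.54 (SE 0.09, limma adjusted p = 0.00431). *Sla2* differed by 0.54 (SE 0.12, limma adjusted p = 0.0348), *Cblb* by 0.80 (SE 0.23, limma adjusted p = 0.0431) and *Cd3e* by -0.62 (SE 0.15, limma adjusted p = 0.0469). Over 11 alternative settings and 14 fits with a sample left out, the calls of *Sla* alone, without *Tg*, and of *Lcp2* held in all, with adjusted p-values of at most 0.0096 and 0.0211. That of *Rela* was lost in 1, with sex as a covariate (limma adjusted p = 0.0654). Those of *Sla2*, *Cblb* and *Cd3e* were lost in 3, 4 and 4 of the settings and in 5, 11 and 6 of the fits with a sample left out, among them all 3 fits without an HDAC1cKO sample, with adjusted p-values of up to 0.22, 0.322 and 0.303. *Cd247* differed by -0.00 (95% interval -0.45 to 0.44), and *Rel* by -0.04 (95% interval -0.37 to 0.3). Of the 30 members that passed in HDAC1cKO-HDAC2HET cells, 21 (70.0%) had the same sign in HDAC1cKO cells, and 28 (93.3%) had the larger change in HDAC1cKO-HDAC2HET cells. Among the 6983 genes of all kinds that passed and were tested in both, these shares were 82.7% and 89.9%.

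**Figure D5:**
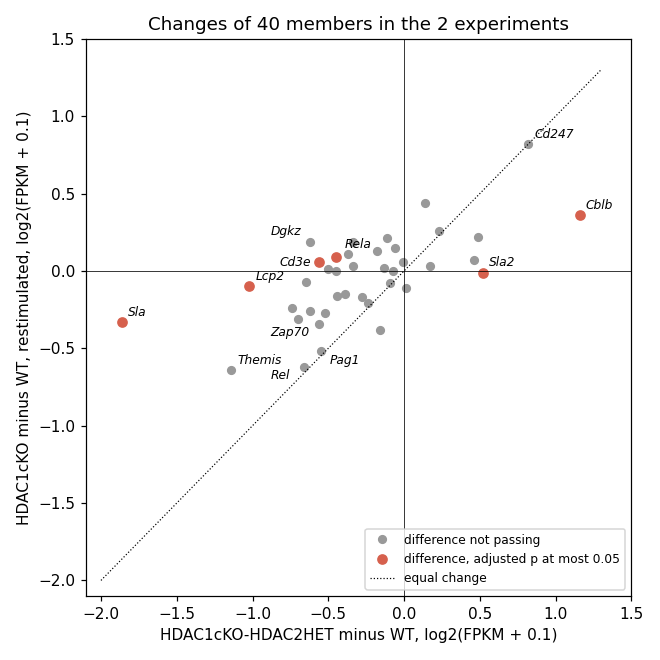
Change of the 40 members tested in both experiments, HDAC1cKO-HDAC2HET minus WT (x axis) against HDAC1cKO minus WT after restimulation (y axis), both on the log2(FPKM + 0.1) scale, with the line of equal change. The 6 red members differ between the experiments at an adjusted p of at most 0.05, and *Cd247*, at 0.82 on both axes, lies on the line.

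Further genes of the pathway, from lists of 70 genes that are not among the members, moved both ways in HDAC1cKO-HDAC2HET cells. Of the 65 tested, 18 rose and 27 fell, with a median log2 change of -0.05, where 24.2% of all genes rose and 27.6% fell. Proximal signalling genes gave 5 higher and 11 lower of 24, Ras and MAPK genes 4 and 4 of 14, calcium genes 6 and 5 of 13, and NF-kB genes 3 and 7 of 14. The largest change was that of *Tespa1*, a regulator of calcium release after TCR signalling, which went from 15.9 to 19.4 FPKM in WT to 1.74 to 2.85 FPKM (log2 change -3.0, SE 0.14, limma adjusted p = 3.92e-06). In HDAC1cKO cells *Tespa1* was at 17.3, 20.7 and 13.4 FPKM in WT and 5.64, 6.23 and 6.32 FPKM in HDAC1cKO samples, groups that did not overlap (log2 change -1.46, limma adjusted p = 0.0628). *Trat1*, encoding the TCR-associated protein TRIM, fell by 1.31 and *Mapk8*, encoding JNK1, fell by 1.03 on the log2 scale. *Rasa1*, a Ras GTPase-activating protein, fell by 0.94, and *Tnfaip3*, encoding the NF-kB inhibitor A20, fell by 0.91. The adaptor *Dok1* rose by 1.01 and the inhibitor *Nfkbib* rose by 1.02, and *Nfkbib* overlaps *Sirt2*, at up to 49.5 FPKM, as *Rasa1* overlaps *Ccnh*. The adaptor *Gab2*, with a log2 change of -1.02, was at most 1.10 FPKM in any of these samples. In HDAC1cKO cells 0 of 67 of these genes passed in limma, and 12 had an unadjusted p of at most 0.05, as did 14.2% of all genes.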

How the data were processed

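Per the labels, RNA was taken from activated CD4+ T cells, and libraries were made with a stranded mRNA kit. The authors mapped reads to mm10 and deposited, per library, FPKM values with confidence bounds from Cufflinks, which divide by transcript length and library size; replicates were not pooled. The submitters' processing notes also name STAR 2.5.2b and Subread 1.5.1, and no counts were used here. Rows without a gene name were assigned to a gene where an assembled locus shared at least 0.8 of the joint span with it or a transcript of it (GENCODE annotation of the same build). Of the 41 members, 25 were matched this way in all samples of the first experiment and 16 in some, and 33 and 7 in the second. A value of FPKM therefore rests on a locus that can include neighbouring genes. Depth was estimated from the deposited bounds assuming a mean fragment length of 200, where 85.5% to 87.9% of low values per sample gave whole fragments within 0.05. The deposited upper bound lay a median of 3.97% above the value over members, from 1.96% for *Cd2* to 15.6% for *Txk*.

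The samples of an experiment were compared on the scale log2(FPKM + 0.1) by moderated linear models (limma 3.58.1, R 4.3.3, trended variance). Genes whose mean reached 0.1 FPKM entered, and p-values were adjusted over all of them (Benjamini-Hochberg). Fold changes are on that scale and understate changes of low genes. The difference between the experiments was tested by a Welch test on the moderated errors of both fits. Its p-values were adjusted over all genes tested in both (Benjamini-Hochberg). The tests were also run on simulated data, with 199 of 14641 genes changed in the HDAC1cKO-HDAC2HET comparison. Of these, 65 changed by a log2 of 0.5 and 89 changed by 1 were recovered, with 10 false calls. For the difference, 28 and 60 such genes of 198 changed were recovered, with 17 false calls among 11994 genes. In that simulation a larger share of the calls for the difference was false than the threshold of 0.05 allows. In the data far more genes passed, 51.8% in the HDAC1cKO-HDAC2HET comparison and 9.03% for the difference. The simulated rates therefore do not give the false share of the calls reported here. Single genes were also tested by a 2-sided exact permutation test (scipy 1.17.1). The members and gene lists were chosen with earlier results of these data known. Values per sample are given for the CD3 chains, for up to 3 members per role with the largest change among those that passed in the HDAC1cKO-HDAC2HET experiment, and for members that passed for the difference; of the further pathway lists the 8 largest passing changes are named. Values per sample of *Nfkb1*, and the values of *Tg*, *Rab5if*, *Trac*, *Xist*, *Klrk1* and *Cd8b1*, were added after they had been seen. The alternatives changed the pseudocount, filter, scaling, variance model, sample weights, sex covariate, locus matching, replicate block and each sample in turn; figures were drawn with matplotlib 3.10.9.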

Additional observations from a re-analysis of the deposited data

Results flagged for a closer look

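A sample lay apart from the 3 others of its group of 4 for 4 of the 82 groups looked at, where chance gives about 1 in 20. *Cblb* was at 42.7 FPKM in WT replicate 1 and 26.9 to 27.9 FPKM in the other WT samples, and without that sample its log2 change was 1.32. In HDAC1cKO-HDAC2HET samples, *Nfkb1* was at 235 FPKM in replicate 2 against 246 to 248 FPKM, *Pag1* was at 4.49 FPKM in replicate 1 against 3.96 to 4.05 FPKM, and *Sit1* was at 6.75 FPKM in replicate 1 against 8.04 to 8.19 FPKM. For all 4 genes every HDAC1cKO-HDAC2HET sample, the one apart included, stayed on its side of the WT samples.

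The change in HDAC1cKO-HDAC2HET cells differed from that in HDAC1cKO cells, by the test of the difference itself, for 6 members. The differences on the log2 scale were -1.53 for *Sla* (-0.15 for *Sla* and *Tg* summed), -0.93 for *Lcp2*, -0.54 for *Rela*, 0.54 for *Sla2*, 0.80 for *Cblb* and -0.62 for *Cd3e*. Genotype, the restimulation and the balance of sexes all differ between the experiments. The deposited files differ as well, with 36704 to 38572 named rows per sample in the first experiment and 24363 to 25130 in the second. The parts of these differences cannot be told apart.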

How the results depend on the processing

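The counts of members in the HDAC1cKO-HDAC2HET experiment stayed between 5 and 8 higher and between 20 and 24 lower over the settings tried, and fits that each omitted a sample gave 7 to 8 and 22 to 24. The replicate numbers did not pair the samples (correlations of deviations from -0.01 to 0.04), and with a replicate block 8 members were higher and 24 lower. In the HDAC1cKO experiment 0 members passed under every setting, the replicate block included, but 1: a fit over all 14 samples, where 2 were higher (*Cd247* and *Prkcq*) and 4 lower (*Rel*, *Zap70*, *Pag1* and *Sla*). The members that differed between the experiments numbered 6, and 3 without the variance trend, 2 with sex as a covariate, 14 with 1 spread over all 14 samples, 4 with the replicate block, and 3 to 8 with each sample left out, the lowest without HDAC1cKO replicate 1 or 3. Shares of all genes are not given for these alternatives, so their counts have no background beside them. *Cd3e* and *Sla2* lost their calls for the difference with the replicate block (Welch adjusted p = 0.0893 and 0.0505). *Cd3g*, *Sit1*, *Nfkb1*, *Ptpn6* and *Ubash3b* lost theirs in the HDAC1cKO-HDAC2HET experiment when all 14 samples were fitted together. The sum of *Sla* and *Tg*, an alternative added after the data were seen, had no call for the difference (-0.15, Welch adjusted p = 0.366).

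Among members given per sample, signs turned only where no call had been made. In the HDAC1cKO experiment, sample weights gave -0.03 for *Cd3e*, 0.01 for *Fyn*, -0.01 for *Lck*, -0.10 for *Cd5* and -0.02 for *Sit1*. Sex as a covariate gave -0.02 for *Cd3g*, 0.07 for *Fyn*, -0.04 for *Lck*, 0.01 for *Nfkbia*, -0.12 for *Cd5* and -0.53 for *Sit1*. Median-of-ratios scaling gave 0.02 for *Fyn* and 0.01 for *Sla2*. With each sample left out, the log2 changes ranged from -0.21 to 0.03 for *Cd3d*, -0.09 to 0.18 for *Cd3e*, -0.02 to 0.20 for *Cd3g*, -0.07 to 0.09 for *Fyn*, -0.04 to 0.20 for *Lck*, -0.15 to 0.01 for *Lcp2*, -0.26 to 0.01 for *Nfkbia*, -0.13 to 0.08 for *Cd5*, -0.14 to 0.37 for *Sit1* and -0.11 to 0.08 for *Sla2*. The difference of *Cd247* was 0.01 with median-of-ratios scaling, 0.03 with sample weights and -0.13 to 0.16 with each sample left out. That of *Pag1* was 0.08 with sex as a covariate and -0.18 to 0.07 with each sample left out, and that of *Rel* was -0.13 to 0.07. The causes were not tested. Sex could not be fitted in the HDAC1cKO-HDAC2HET experiment, and no member was listed by name in all of its samples, so that alternative gave no value. The test of 3 against 3 samples limits the HDAC1cKO comparison, whose intervals are given beside its values.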
